A study of Mus musculus with 2 samples.

Results

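The Zfp genes are the mouse genes named for a zinc finger protein by the symbol Zfp and a number. All autosomal protein-coding genes of GENCODE vM21 with such a symbol were taken, apart from Zfp42, which gave 357 of 20722 genes, and the other 20365 genes served for comparison. SCoTCH-seq reads C, mC and hmC on both strands of a CpG site from a single read pair, so each call is 1 of 9 CpG states. It was run on E14 mouse embryonic stem cells (mESCs), an established line, grown untreated in medium with serum and LIF. There was 1 condition with 2 replicates, taken by the study from separate passages of the line, and no group of altered cells. The first letter of a state is the plus strand, C is unmodified cytosine, M is mC and H is hmC, and the mirror states were joined as MC/CM, HC/CH and HM/MH.

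Most proteins of this family bind DNA through arrays of C2H2 zinc fingers, in which a pair of cysteines and a pair of histidines hold a zinc ion. Many also carry a KRAB domain, which recruits Trim28 and the H3K9 methyltransferase machinery, and in embryonic stem cells such proteins silence retrotransposons and maintain imprints. The genes have multiplied by tandem duplication, and a typical KRAB member encodes its whole finger array in the last exon. In the last exons and introns of genes, mC is the usual state, and TET enzymes convert part of it to hmC.

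Of the 357 Zfp genes, 217 were clustered, meaning that at least 2 other Zfp genes started within 500 kb of their own transcription start site (TSS), and 140 were isolated. Chromosome 7 held 89 of them, chromosome 17 held 41, and chromosome 19 held 2. A C2H2 motif was found in the coding sequence of 344 genes, with a median of 11 motifs in those genes and 36 in Zfp142, the gene with the most. The label therefore fitted most members, while 13 had no such motif, among them Zfp36, which encodes the mRNA decay factor tristetraprolin with fingers of another type. Of 3730 motifs, 3202 (85.8%) lay in the last exon. The last exon had a median length of 2487 bases and a median coding length of 1301 bases, against 1121 and 172 bases in the other genes.

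Sites were assigned to the promoter (1 kb either side of the TSS), the last exon or the introns, and a level is the percentage of all calls of a class. Over the autosomes, replicate 1 held 13366464 CpG sites with a mean depth of 10.6 calls, and replicate 2 held 4882356 sites with a mean depth of 6.37. Zfp genes contributed 67599 of these sites in replicate 1 and 26248 in replicate 2. In replicate 1, 48.2% of the reference CpGs of Zfp promoters, 67.7% of those of introns and 71.8% of those of last exons were covered. In replicate 2, the shares were 17.6%, 26.3% and 29.7%. For other genes, in the same order, they were 44.8%, 71.9% and 68.3% in replicate 1 and 15.5%, 27.1% and 25.1% in replicate 2. The replicates differed in their call errors: spike-in duplexes of known MM state read as HM at a rate of 2.42% and as MH at 2.09% in replicate 1, and at 0.272% and 0.194% in replicate 2. The HM/MH and HH levels given here are as called and move with these rates: HM/MH in Zfp last exons was 4.33% and 2.70% as called, and 1.76% and 2.35% after correction by them.

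No site of either replicate lay in 28 members, of which 25 were clustered. Other genes without a site were not counted, so whether such a gap is particular to Zfp genes was not tested. Of the 28, 17 lie on chromosome 4, which holds 30 members, and 7 on chromosome 2, which holds 25. Among them were Zfp965 to Zfp970 on chromosome 2 and Zfp984 to Zfp993 on chromosome 4. At least 1 site was covered in both replicates in the promoters of 321 genes, the last exons of 313 and the introns of 315. At least 10 sites in both replicates were covered in 208, 189 and 271 genes. Reads from near-identical paralogs can be placed on the wrong copy, and the part of this in the levels was not tested.

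The sequences of a methylated and an unmethylated Zfp promoter are given as examples of low and high CpG content, not as its range. Each run gives the 250 bases before the RefSeq start in GRCm38.p6, on the strand of the gene, with CpGs in capitals. Zfp708, a KRAB zinc finger protein that acts on retrotransposons, starts just below the left edge of chr13:67097977-67098226 (minus strand). Zfp91, which encodes a ubiquitin ligase with C2H2 fingers, starts just below the left edge of chr19:12796124-12796373 (minus strand).
Zfp708: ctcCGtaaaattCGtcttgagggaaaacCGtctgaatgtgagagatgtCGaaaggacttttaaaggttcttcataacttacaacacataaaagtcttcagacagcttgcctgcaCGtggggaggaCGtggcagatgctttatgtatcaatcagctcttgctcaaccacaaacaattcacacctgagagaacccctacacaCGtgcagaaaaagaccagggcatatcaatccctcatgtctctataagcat
Zfp91: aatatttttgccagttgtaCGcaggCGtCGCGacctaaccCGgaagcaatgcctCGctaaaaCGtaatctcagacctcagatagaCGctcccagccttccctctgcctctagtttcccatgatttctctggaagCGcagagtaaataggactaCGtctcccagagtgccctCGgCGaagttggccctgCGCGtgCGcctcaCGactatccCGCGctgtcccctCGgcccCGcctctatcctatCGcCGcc
The Zfp708 run holds 7 CpGs and the Zfp91 run holds 22. At Zfp708, 59 of 76 calls in replicate 1 were MM (77.6%, exact 95% interval 66.6% to 86.4%), and in replicate 2, 5 of 12 (41.7%, interval 15.2% to 72.3%). At Zfp91, all 75 calls of replicate 1 and all 10 calls of replicate 2 were CC, with intervals of 95.2% to 100% and 69.2% to 100%. These intervals are exact Clopper-Pearson intervals and cover counting error only, with all calls taken as independent. Neighbouring CpGs called from the same read pair are not, so the intervals can be too narrow. Low CpG content did not go with methylation in every gene. The same run of Zfp57 holds 3 CpGs and had 97.4% and 100% CC. That of Zfp445 holds 5 and had 92.6% and 100% CC, each gene with 2 or 3 covered sites per replicate. The start used for Zfp57, 37003666 on the plus strand, lies inside the annotated gene, which begins at 37001163. Its run may therefore not be the outermost promoter.

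Summed over all calls, promoters of Zfp genes were more often unmodified than those of other genes. The median of genes with at least 10 promoter sites in each replicate did not show this. In replicate 1, 86.9% of the calls in Zfp promoters were CC, against 77.2% in other promoters. In replicate 2, the levels were 84.7% and 75.1%. Averaged over autosomes, the difference was 10.2 percentage points in replicate 1 and 8.86 in replicate 2. It was positive on 19 of 19 autosomes in replicate 1 and on 16 of 18 in replicate 2, and the 18 left out chromosome 19, which had fewer than 200 calls in the class. The exact sign-flip permutation test over autosomes, two-sided, gave adjusted p = 0.000137 and 0.000824 (Benjamini-Hochberg over all 108 tests). All autosomes of a replicate come from 1 library, so this test describes how evenly a difference runs over the genome.

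Over summed calls all modified states were lower in Zfp promoters, and each was called in both replicates. MM made up 8.01% and 9.43% of calls in replicates 1 and 2, against 14.8% and 16.2% in other promoters. The mean difference in MM was -6.90 and -6.31 points (adjusted p = 0.000206 and 0.00113, exact sign-flip permutation test). MC/CM, the hemimethylated states, stood at 2.62% and 3.29% against 4.06% and 4.77%. HC/CH, in which hmC faces unmodified cytosine, stood at 1.55% and 1.67% against 2.38% and 2.52%. The differences in HC/CH were -0.89 and -0.75 points (adjusted p = 0.000137 and 0.00404, exact sign-flip permutation test). HM/MH was 0.805% and 0.827% against 1.46% and 1.25% (adjusted p = 0.000137 and 0.0308, exact sign-flip permutation test). After correction by the spike-in call rates, HM/MH was 0.418% and 0.738% against 0.751% and 1.11%, and the mean difference in replicate 1 was -0.36 points in place of -0.70. HH was 0.106% and 0.0476% against 0.184% and 0.127%. The HH call was lost under 4 alternatives and the HM/MH call under 3, in the same direction. With a minimum of 10 calls per site, the promoter differences remained called in replicate 1, while replicate 2 kept 4 autosomes, on which the smallest two-sided p is 0.125.

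For CC, MM and MC/CM the median promoter went the other way in genes with at least 10 promoter sites in each replicate. This holds for the median of that subset. The lower quartile of CC in the same subset was 83.5% and 82.3% in Zfp genes, above the 80.2% and 76.8% of other genes. A share of genes over a threshold is another measure than a median. With at least 5 sites, CC was at least 80% in both replicates in 67.7% of Zfp genes, against 54% of all genes. Among genes with at least 10 promoter sites in each replicate, the median CC level was 90.5% and 88.7% in 208 Zfp genes and 91.6% and 90.5% in 9562 other genes. The median MM level was 5.74% and 5.71% in Zfp genes and 4.45% and 4.64% in other genes, and the median MC/CM level was 2.05% and 2.42% against 1.73% and 2.07%. The median HC/CH level was 1.353% and 1.093% in Zfp genes and 1.349% and 1.333% in other genes. The median HM/MH level was 0.472% against 0.533% in replicate 1 and 0% in both sets in replicate 2. At the upper quartile of MM the order turned, with 9.61% and 11.3% in Zfp genes and 11.4% and 13.5% in other genes. These are descriptions without a test.

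**Figure D1:**
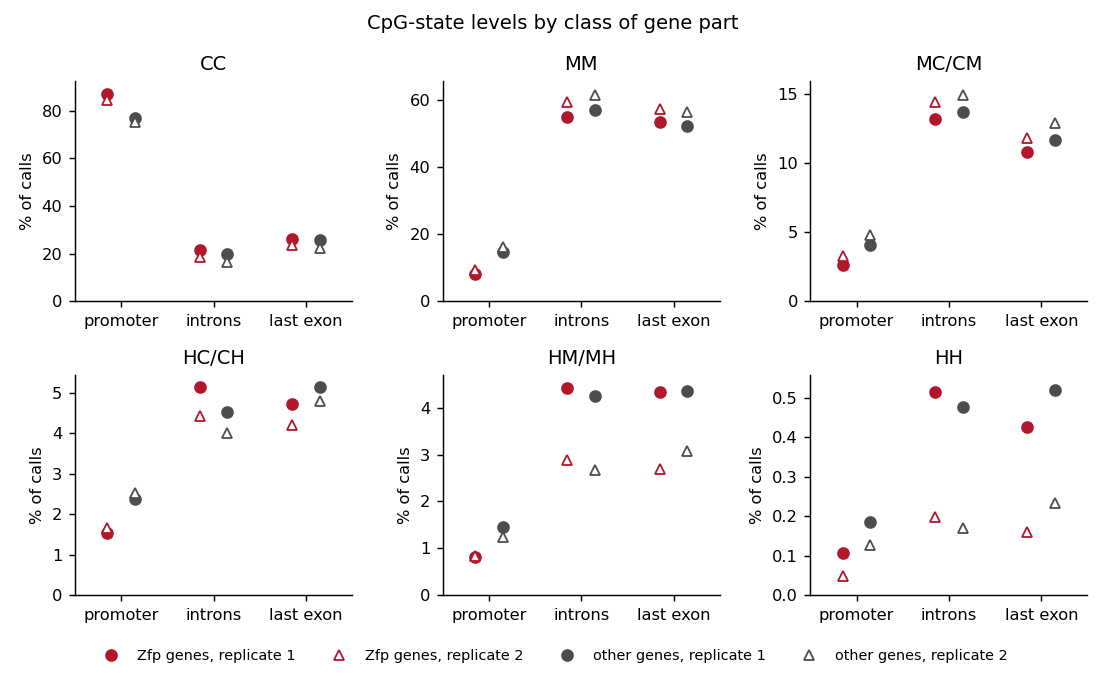
Levels of the 6 joined CpG states (% of calls) in promoters, introns and last exons of Zfp genes (red) and other genes (grey), with replicate 1 as filled circles and replicate 2 as open triangles. In promoters the CC level of Zfp genes (86.9% and 84.7%) lies above that of other genes (77.2% and 75.1%), while in last exons the red and grey CC points lie close together (26.3% and 23.8% against 25.9% and 22.4%).

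Around the TSS itself CC was higher still. In the 200 bases before the TSS, CC reached 97.1% of calls in both replicates of Zfp genes, against 87.1% and 86.1% in other genes. At 1.8 to 2 kb upstream, CC was 41.6% and 39.6% in Zfp genes and 34.7% and 31.4% in other genes. At the same distance downstream the order was reversed, and CC was 36.9% and 31.3% in Zfp genes and 39.2% and 35.0% in other genes. HC/CH in the first 200 bases after the TSS was 0.37% and 0.66% in Zfp genes, against 1.4% and 1.54%. At 1.8 to 2 kb downstream it was 5.4% and 4.17% in Zfp genes and 5.04% and 4.79% in other genes, so the order differed between the replicates.

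**Figure D2:**
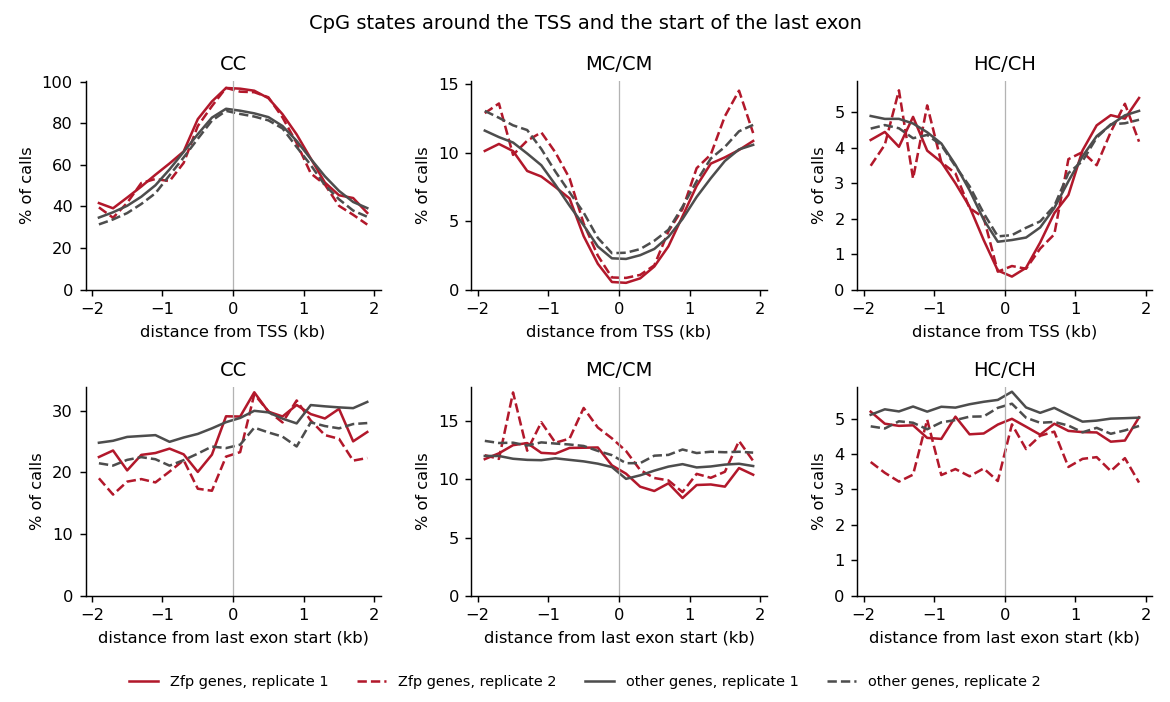
CC, MC/CM and HC/CH levels (% of calls, 200-base bins) within 2 kb of the TSS (top) and of the start of the last exon (bottom), for Zfp genes (red) and other genes (grey), replicate 1 solid and replicate 2 dashed. Around the TSS, Zfp genes reach 97.1% CC just upstream. Beyond the start of the last exon, their lowest MC/CM bin is at 800 to 999 bases, with 8.39% and 8.91%. At 201 to 400 bases before that start they have 12.7% and 14.5%. Other genes have 11.4% and 12.4% before the start, and 11.3% and 12.6% at 800 to 999 bases. Their own lowest bin is at 0 to 199 bases, with 10.0% and 11.4%, so MC/CM falls in both sets, at different distances.

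Promoter by promoter, unmodified Zfp promoters were the rule. CC was at least 80% in both replicates in 191 of the 282 Zfp genes with 5 or more promoter sites per replicate (67.7%), and in 54% of all 14919 genes so covered. MM was at least 50% in both replicates in 8 Zfp genes (2.84%), against 12.6% of all genes. The 8 were Zfp111, Zfp287, Zfp474, Zfp683, Zfp708, Zfp791, Zfp869 and Zfp957, and their MM levels ran from 56.6% to 80.2% in replicate 1. The TSS used is that of the transcript with the longest coding sequence. In Zfp111 (TSS 24203583, gene end 24211443) and Zfp287 (TSS 62728666, gene end 62731905), both on the minus strand, it lies inside the annotated gene. Their sites may therefore not be those of the outermost promoter. Most of these 8 encode C2H2 arrays, but Zfp474 and Zfp957 have no C2H2 motif by the pattern used here.

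The 5 highest promoter MM levels in replicate 1, among genes with at least 10 sites in each replicate, were read again in replicate 2. Zfp474 had 80.2% MM in replicate 1 and 68.7% in replicate 2. Zfp708 had 66.0% and 65.6%, Zfp869 had 65.5% and 58.3%, Zfp287 had 64.0% and 66.2%, and Zfp791 had 56.6% and 67.8%. All 5 therefore stayed far above the median of the 208 genes, which was 5.74% in replicate 1 and 5.71% in replicate 2 (other genes 4.45% and 4.64%). The next gene in the ranking, Zfp831, had 49.4% and 51.4%. Across the 208 genes, promoter MM of the replicates correlated with Pearson's r = 0.92 and Spearman's rho = 0.82, given as a description because the genes share a library and are not replicates.

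The CpG content of these promoters was compared with RefSeq windows from 250 bases before to 50 bases after the start. A window that held the TSS used here was found for 240 Zfp genes and for 12274 of all genes. The median number of CpGs was 14 in Zfp genes and 16 in all genes, and 67.9% of Zfp windows and 63.6% of all windows held at least 10 CpGs. The 53 Zfp genes with fewer than 10 CpGs in the window and at least 5 covered promoter sites had a median CC level of 85.2% in replicate 1 and 84.3% in replicate 2. The 63 genes with at least 20 CpGs had 93.1% and 91.2%. Of the Zfp genes with a window, 4 passed the 50% MM mark in both replicates, and all 4 were among the 53 with fewer than 10 CpGs. Levels by CpG content were not read in other genes, so whether this split is particular to Zfp genes was not tested.

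In introns, no state passed the test in both replicates. MM made up 55.1% and 59.6% of calls in Zfp introns, against 57.2% and 61.5%. CC made up 21.7% and 18.4%, against 19.8% and 16.7%. HC/CH was 5.13% and 4.43% in Zfp introns and 4.53% and 4.02% in other introns. The mean difference in HC/CH was 0.56 points in replicate 1 (adjusted p = 0.043, exact sign-flip permutation test) and 0.24 in replicate 2 (adjusted p = 0.591), so it was not called. With per-gene means in place of summed calls the direction turned, to -0.31 points.

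In last exons as a whole, no state passed the test in both replicates. CC was 26.3% and 23.8%, against 25.9% and 22.4%. MM was 53.5% and 57.3%, against 52.5% and 56.6%. HC/CH was 4.72% and 4.20%, against 5.16% and 4.79%, with mean differences of -0.64 and -0.60 points (adjusted p = 0.167 and 0.27, exact sign-flip permutation test). The direction was negative on 14 of 19 autosomes in replicate 1 and on 12 of 17 in replicate 2. HH was lower by 0.15 points in replicate 1 (adjusted p = 0.0311) and by 0.03 in replicate 2 (adjusted p = 0.768), by the same exact permutation test. After correction by the spike-in call rates, HH in replicate 1 was 0% in Zfp last exons (0.426% as called) and 0.063% in other last exons. Against the 1404 other genes with at least 1000 coding bases in the last exon, a comparison added after the data were seen, CC in Zfp genes was different by -8.08 and -7.12 points (adjusted p = 0.0704 and 0.0911, exact sign-flip permutation test). This did not pass the threshold, but the direction of CC was opposite to that against all other genes.

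Within Zfp genes, hemimethylation was lower in the last exon than in the introns. MC/CM was 10.8% and 11.8% in last exons and 13.1% and 14.4% in introns. The mean difference was -1.83 points in replicate 1, lower on 15 of 19 autosomes, and -2.45 in replicate 2, lower on 16 of 17. It was called in both replicates (adjusted p = 0.0308 and 0.0268, exact sign-flip permutation test). In other genes the step was -2.02 and -2.01 points, and the difference between the steps was 0.20 and -0.44 points (adjusted p = 0.857 and 0.771, exact sign-flip permutation test). With the coding part of the last exon alone, the step was -4.12 and -4.99 points in Zfp genes and -4.59 and -4.37 points in other genes. The call on the whole exon was lost, in the same direction, with at least 10 calls per site (-1.33 points), with sites of both replicates alone (-1.61 points) and with per-gene means (-1.70 points).

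Over summed calls, the step in HC/CH from introns to last exon differed in sign between Zfp genes and other genes. In Zfp genes it was -0.59 and -0.22 points, and in other genes 0.62 and 0.76 points. With per-gene means the step in Zfp genes turned to 0.098 points, so its sign depends on the weighting. The difference between the steps was -1.21 points in replicate 1 (adjusted p = 0.0225) and -0.98 in replicate 2 (adjusted p = 0.0904, exact sign-flip permutation test). It had the same sign on 15 autosomes in each replicate, of 19 and 17, but was not called.

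Gene by gene, the same steps were counted in the 159 Zfp genes with at least 10 sites in both classes and both replicates, among 3297 such genes in all. HC/CH was below the introns in both replicates in 60 Zfp genes (37.7%), against 29.8% of all genes, and above them in 54 (34.0%), against 32.8%. MM was above the introns in 92 (57.9%), against 48.6%, and below in 37 (23.3%), against 30.2%. Over summed calls the MM step in Zfp genes went down, by -1.16 and -2.44 points (adjusted p = 0.817 and 0.556, exact sign-flip permutation test), and was not called. In other genes the MM step was -4.66 and -4.63 points. MC/CM was below the introns in 70 (44.0%), against 42.8%, and above in 36 (22.6%), against 21.7%, both close to the share of all genes.

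**Figure D3:**
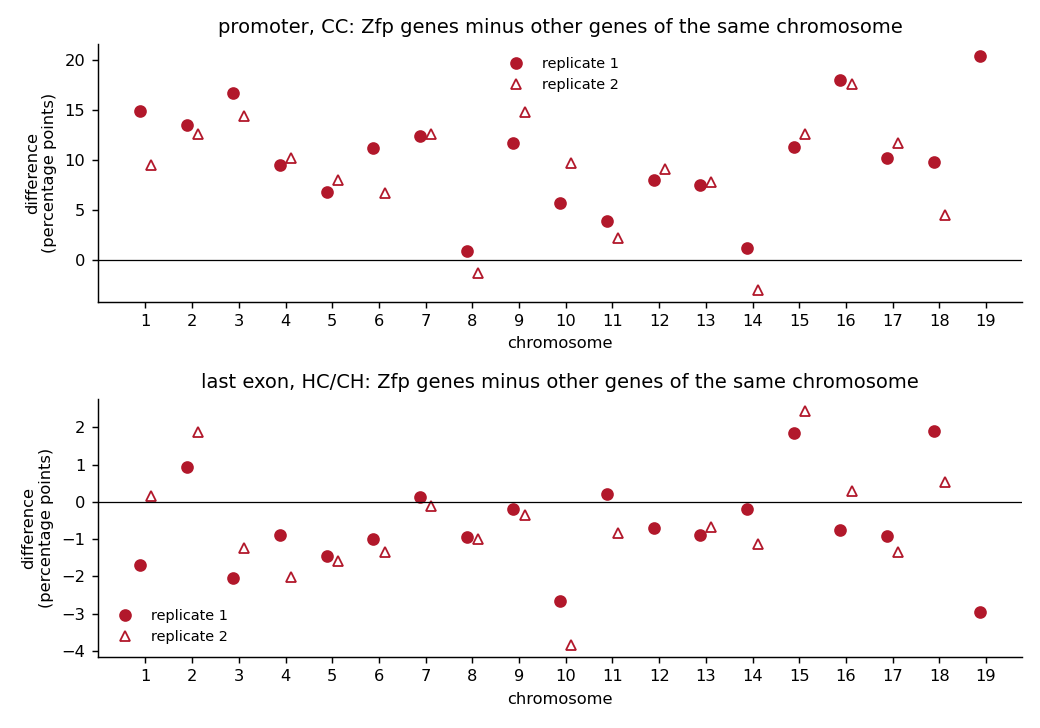
Difference in level (percentage points, Zfp genes minus other genes of the same chromosome) for CC in promoters (top) and HC/CH in last exons (bottom), by chromosome, for autosomes with at least 200 calls in Zfp genes; filled circles are replicate 1 and open triangles replicate 2. The promoter points lie above 0 on 19 of 19 autosomes in replicate 1 and 16 of 18 in replicate 2, and the last exon points lie on both sides of 0.

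Chromosomes varied widely, with few genes behind the extremes. In replicate 1, CC in Zfp promoters ran from 76.2% on chromosome 14 to 98.5% on chromosome 19, which holds 2 members. In replicate 2 it ran from 69.7%, again on chromosome 14, to 91.2% on chromosome 16. On chromosomes 8 and 14 the promoter difference from other genes was near 0 in replicate 1 and below 0 in replicate 2. HC/CH in last exons was highest on chromosome 15 in both replicates, at 7.41% and 7.71%, where Zfp706 and Zfp41 lie. The lowest values were 2.27% on chromosome 19 in replicate 1 and 1.4% on chromosome 10 in replicate 2, the latter from 214 calls.

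The last exons could be split by the finger motifs. A motif was read as a cysteine, 2 to 4 residues, a cysteine, 12 residues, a histidine, 3 to 5 residues and a histidine. Sites in motifs had 28.9% CC in replicate 1 and 28.2% in replicate 2, over 3185 and 1400 sites. Linkers of at most 9 codons between motifs had 30.8% and 28.8%, and the other coding bases of the exon had 31.3% and 28.3%. The untranslated part had 20.3% and 15.7%, below every coding part in both replicates. MC/CM showed the same boundary from the other side, with 8.97% and 9.95% in motifs, 7.37% and 8.30% in linkers, 9.79% and 11.3% in other coding bases and 13.5% and 14.8% in the untranslated part. HC/CH was lowest in motifs, at 4.26% and 3.54%, and 4.99% and 4.51% in the untranslated part. The coding part of the last exon went the same way in other genes. It had 33.6% and 30.3% CC there, against 25.9% and 22.4% in the whole last exon. Its MC/CM was 9.09% and 10.4%, against 11.6% and 12.8% in the whole last exon. No test was run on these parts.

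**Figure D4:**
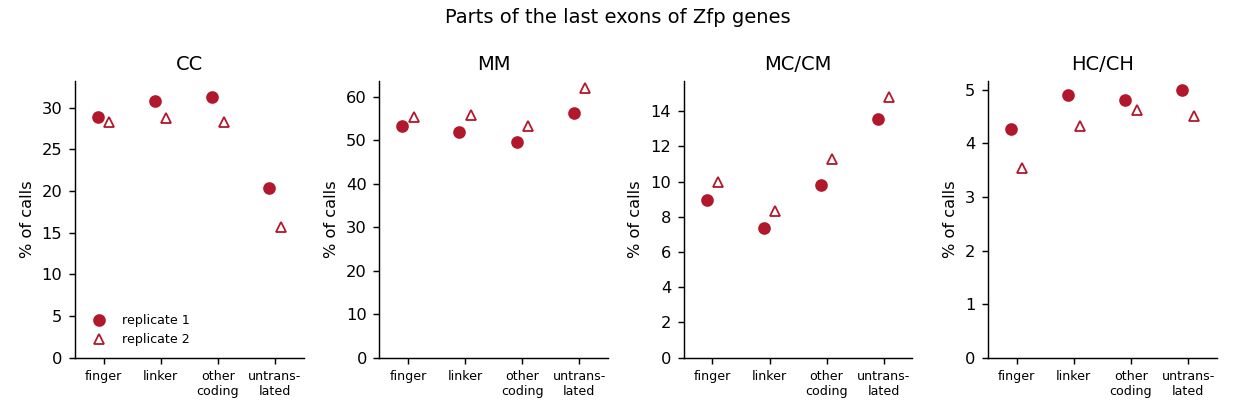
CC, MM, MC/CM and HC/CH levels (% of calls) in the finger motifs, linkers, other coding bases and untranslated part of the last exons of Zfp genes, with replicate 1 as filled circles and replicate 2 as open triangles. In both replicates the untranslated part has the lowest CC (20.3% and 15.7%) and the highest MC/CM (13.5% and 14.8%) of the 4 parts.

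Finger sequences place their CpGs at recurrent positions. Zfp568, a KRAB protein that represses a placental transcript of Igf2, has 11 motifs in its last exon on chromosome 7. Finger 4 is shown because it holds the most CpGs of the units read in this array. Fingers 3 and 10 are shown because their CpGs share recurrent positions, and finger 10 also has the highest HM/MH in replicate 1. Each run is a unit of 28 codons on the plus strand of GRCm38.p6, from the first cysteine codon, with CpGs in capitals.
Zfp568 finger 3, chr7:30022892-30022975: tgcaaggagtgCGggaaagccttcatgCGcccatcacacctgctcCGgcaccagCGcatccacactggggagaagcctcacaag
Zfp568 finger 4, chr7:30022976-30023059: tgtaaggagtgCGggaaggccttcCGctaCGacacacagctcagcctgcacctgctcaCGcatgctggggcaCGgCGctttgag
Zfp568 finger 10, chr7:30023480-30023563: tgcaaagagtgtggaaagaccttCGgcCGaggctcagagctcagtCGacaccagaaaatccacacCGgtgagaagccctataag
Finger 3 has CpGs at bases 12, 28, 46 and 55 of the unit, and finger 10 at bases 24, 28, 46 and 66. Finger 7, which is not shown, has them at bases 25, 28, 46 and 69. In replicate 1, the 4 covered sites of finger 3 had 57.1% MM and 11.4% HM/MH over 35 calls. The 4 sites of finger 10 had 45.8% MM and 22.9% HM/MH over 48 calls in replicate 1. In replicate 2, the 3 covered sites of finger 10 had 33.3% MM and no HM/MH among 18 calls. A count of 0 among 18 calls is a weak limit on the level. Finger 3 had no covered site in replicate 2, and finger 4 had none in replicate 1. In replicate 2, the 3 covered sites of finger 4 had 66.7% MM and 5.56% HM/MH over 18 calls.

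The coding sequences held 2727 fingers with a unit of 28 codons. CpGs of such units were counted where they lay in the last exon, outside the promoter. Base 55, the first of codon 19, between both histidines of the motif, held the most, 469 in the reference. Bases 28, 12, 81 and 66 followed with 275, 272, 240 and 230, and these 5 positions together held 31.5% of the 4713 CpGs so counted. Base 12 is the last base of the codon of the second cysteine. MM at base 55 was 52.7% and 54.4%, at base 28 it was 59.3% and 63.3%, and at base 12 it was 51.6% and 54.3%. HC/CH ran from 2.75% and 2.55% at base 12 to 5.75% and 6.03% at base 81, in the linker. The values at a position come from genes that are not independent, and no test was run.

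Last exon levels also varied with the number of motifs, counted over the whole coding sequence and not in the last exon alone. Zfp462, with 33 motifs, and Zfp423, with 27, have 0 of them in the last exon. Each group is given with the genes that had a last exon site in replicates 1 and 2. The 72 genes with 15 or more motifs, of which 67 and 65 were covered, had 62.5% and 67.9% MM in the last exon and 17.1% and 13.5% CC. The 95 genes with 5 to 9 motifs, 89 of them covered in each replicate, had 48.6% and 51.5% MM and 31.5% and 29.5% CC. The 132 genes with 10 to 14 motifs, 115 and 114 of them covered, lay between them, at 52.5% and 55.1% MM. The 45 genes with 1 to 4 motifs, 41 and 36 of them covered, had 53.9% and 58.8% MM, so the order was not monotonic. The 13 genes without a motif, 11 and 10 of them covered, had 29.5% and 39.5% MM. HC/CH was 5.59% and 4.85% with 1 to 4 motifs and 4.17% and 3.4% with 15 or more. These are descriptions without a test.

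Single genes spanned nearly the whole range. Among the 189 genes with at least 10 last exon sites in each replicate, CC ran from 2.78% to 94.7% in replicate 1, with a median of 15.9%, and from 0% to 98.4% in replicate 2, with a median of 11.8%. CC was at least 50% in both replicates in 30 of them (15.9%), against 14.8% of all 4008 genes so covered. MM was at least 70% in both replicates in 21 (11.1%), against 6.91%. Last exon CC of the replicates correlated with r = 0.94 (rho = 0.88) over the 189 genes, HC/CH with r = 0.44 (rho = 0.45) and HM/MH with r = 0.22 (rho = 0.28).

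**Figure D5:**
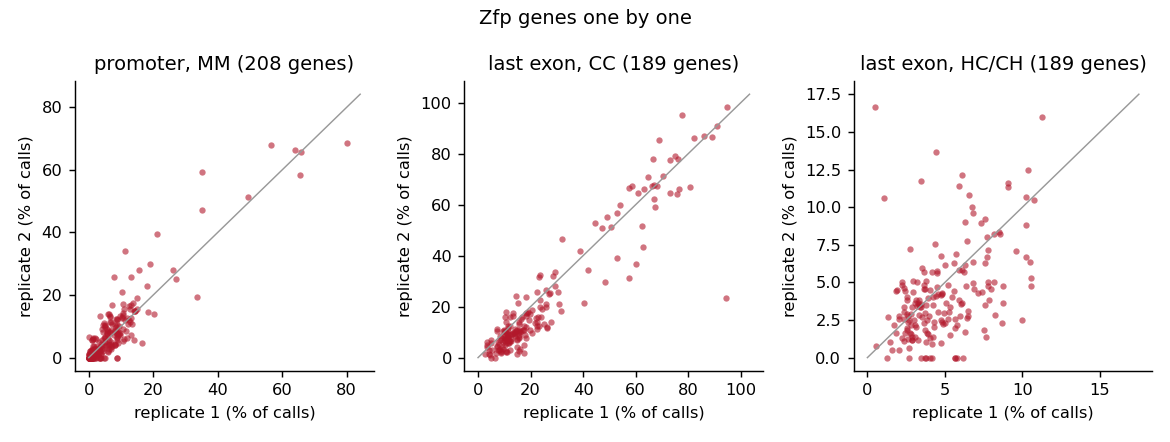
Level in replicate 1 (x axis) against replicate 2 (y axis), both in % of calls, for Zfp genes with at least 10 sites of the class in each replicate, with the line of equal values in grey: promoter MM (208 genes), last exon CC and last exon HC/CH (189 genes). Promoter MM and last exon CC follow the line (r = 0.92 and 0.94), HC/CH scatters around it (r = 0.44), and the lone gene far below the line for CC is Zfp703 (94.4% and 23.3%).

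The 5 last exons with the highest HC/CH in replicate 1 were those of Zfp706, Zfp661, Zfp276, Zfp949 and Zfp41. The last exons of Zfp706 and Zfp41 hold no coding base. Zfp706 had 11.3% in replicate 1 and 16.0% in replicate 2. Zfp661 had 10.8% and 10.5%, Zfp276 had 10.6% and 5.26%, Zfp949 had 10.6% and 4.76%, and Zfp41 had 10.5% and 6.36%. All 5 were above the median of replicate 2, which was 3.57%. The next gene, Zfp532, had 10.4% and 12.5%.

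The 5 lowest were Zfp703, Zfp503, Zfp142, Zfp777 and Zfp36. Zfp503 and Zfp703 encode related transcriptional repressors of the NET family, and the last exons of Zfp503 (94.7% and 98.4% CC), Zfp777 (90.9% and 91.0%) and Zfp36 (88.9% and 86.7%) were mostly unmodified. Zfp142 had mostly methylated sites, with 79.2% and 80.3% MM from 11 sites in each replicate. Its HC/CH was 1.04% in replicate 1 and 10.6% in replicate 2. Zfp703 had 0.463% HC/CH in replicate 1 (69 sites) and 16.7% in replicate 2 (10 sites), with CC of 94.4% and 23.3%. Of the 5, 3 were below the median of replicate 2.

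The ranking by HM/MH did not carry over. Zfp568 had 10.9% in replicate 1 and 1.49% in replicate 2, Zfp930 had 9.26% and 1.64%, Zfp398 had 9.06% and 4.41%, Zfp235 had 8.70% and 2.20%, and Zfp750 had 8.70% and 6.33%. Only 2 of these 5 were above the median of replicate 2, 2.33%. The intron ranking by HC/CH did carry over, with all 5 above the median of 3.64% in replicate 2. Zfp750, a regulator of epidermal differentiation, had 11.8% and 9.84%. Zfp128 had 9.64% and 7.61%, Zfp651 had 9.52% and 7.55%, Zfp866 had 9.43% and 6.29%, and Zfp715 had 9.39% and 4.61%.

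Both Zfp genes that maintain imprints, Zfp57 and Zfp445, were mostly unmodified in the 250 bases before the start, from 2 or 3 covered sites per replicate. They differed in their last exons. The promoter of Zfp57, taken at a start inside the annotated gene, had 87.5% and 84% CC. The last exon of Zfp57 had 67.1% and 67.6% CC with 6.58% and 10.8% HC/CH. The last exon of Zfp445 had 64.5% and 73.3% MM with 6.79% and 4.97% HC/CH. Its promoter had 58.7% and 85.1% CC and 27.9% and 10.6% MM over 44 and 9 sites. Zfp809, which silences retroviral sequences, had a promoter with 99.3% and 97.7% CC and only 4 CpGs in the last exon. Its introns had 7.85% and 7.24% HC/CH. Zfp568 had 99% and 100% CC in the promoter and 50.9% and 59.7% MM in the last exon. Zfp708 had 67.3% and 86.7% MM in the last exon, and its introns, with 43.7% and 38.6%, were less methylated than its promoter.

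Among the members known as regulators outside the KRAB family, promoters were mostly unmodified. Zfp521 was the lowest in replicate 1, at 77.0% and 80.6% CC. For Zfp217, Zfp462 and Zfp536 the start used lies inside the annotated gene, so the outermost promoter may be another. Zfp143, a transcriptional activator, had 96.9% and 94.4% CC, and Zfp281, a regulator of pluripotent cells, had 91.3% and 87.0%. The last of the 2 exons of Zfp281 had 44.5% and 52.9% CC. Zfp217 and Zfp423 had high intron HC/CH, 8.57% and 9.12% in Zfp217 and 6.6% and 5.73% in Zfp423, against medians of 4.71% and 3.64%. Zfp462 had 6.21% and 4.97% over 1084 and 452 intron sites, Zfp536 had 5.16% and 4.57%, and Zfp521 had 4.42% and 4.33%. Zfp36 had no modified call in its introns, which hold 24 covered sites in replicate 1 and 5 in replicate 2. Zfp91 had 99.8% and 99.3% CC in the promoter and 30.2% and 34.4% in introns.

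No state differed between clustered and isolated Zfp genes by a call in both replicates. Promoter CC was 86.8% and 84.6% in clustered and 87.1% and 85.0% in isolated promoters, and the mean differences of -0.05 and -0.43 points were not called (adjusted p = 0.985 and 0.95, exact sign-flip permutation test over 14 and 11 autosomes). In last exons HC/CH was 4.32% and 3.88% in clustered and 5.36% and 4.68% in isolated genes. The mean difference was -1.34 points, lower on 12 of 13 autosomes, in replicate 1 (adjusted p = 0.00959) and -1.38 points, lower on 8 of 11, in replicate 2 (adjusted p = 0.0871, exact sign-flip permutation test). It was therefore not called in both. In introns the HC/CH difference was -0.71 and -0.77 points, also not called (adjusted p = 0.101 and 0.323, exact sign-flip permutation test).

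The largest cluster of chromosome 7 runs from Zfp84 to Zfp146 (29768552 to 30169750) with 15 genes, Zfp568 among them. Its last exons had 59.4% and 63.6% MM and 5.25% and 4.62% HC/CH, and its introns 5.98% and 5.55% HC/CH. The cluster of chromosome 17 runs from Zfp160 to Zfp13 (21008903 to 23599487) with 23 genes, and that of chromosome 13 from Zfp712 to Zfp273 (67038596 to 67827002) with 19, including Zfp708. These had less hmC in last exons, with HC/CH of 2.88% and 3.02% on chromosome 17 and 3.24% and 2.93% on chromosome 13, where 18 and 17 of the 19 last exons were covered. Promoter CC was 90.5% and 89.5% on chromosome 7, 88.4% and 86.2% on chromosome 17, and 81.5% and 77.5% on chromosome 13. The clusters thus differed from each other by more than the replicates did in last exon HC/CH between chromosome 7 and the other two, which is given without a test. Sites shared by neighbouring genes were counted for each gene.

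The strand of an asymmetric state was read against the direction of the gene. In last exons, MC/CM with mC on the coding strand made up 5.87% and 6.36% of calls and the opposite orientation 5.50% and 5.63% (means over autosomes). The difference was 0.38 points in replicate 1 (adjusted p = 0.371) and 0.73 in replicate 2 (adjusted p = 0.025, exact sign-flip permutation test), not called in both. HC/CH with hmC on the coding strand made up 2.25% and 2.06%, and the opposite orientation 2.25% and 2.09%. HM/MH with hmC on the coding strand made up 2.22% and 1.49%, and the opposite orientation 1.97% and 1.19%. The HM/MH difference was 0.25 points, higher on 13 of 19 autosomes, and 0.30 points, higher on 10 of 17 (adjusted p = 0.139 and 0.237, exact sign-flip permutation test), and was not called. In introns no orientation was called, and the MC/CM difference was -0.09 points in replicate 1 and 0.59 in replicate 2 (adjusted p = 0.496 and 0.0904, exact sign-flip permutation test).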

How the data were processed

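SCoTCH-seq calls of E14 mESC genomic DNA were used from both replicates. Per the labels and methods, the authors trimmed reads with Cutadapt 4.6, aligned them to mm10, removed duplicates with Picard 3.1.1 and called a CpG state per read pair. The authors deposited counts of each state per CpG site, with the depth, for sites of at least 5 calls outside blacklisted regions. The deposited percent column equals the count divided by the depth and was checked, and neither was corrected by spike-ins. All positions lie on a CpG of GRCm38.p6.

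Counts were summed per class for the transcript with the longest coding sequence, and a promoter site counted before a last exon site, and that before an intron site. Differences were tested within each replicate over autosomes with at least 200 calls by an exact two-sided sign-flip permutation test, with Benjamini-Hochberg adjustment over 108 tests. Alternatives that reran the tests, among them the comparison with long last exons, were each adjusted over their own tests alone. Leaving out a replicate kept the adjusted p of the main tests. A result was called where the adjusted p was under 0.05 in both replicates with the same sign. With 1 condition and 2 replicates no test between samples was possible. Members, lists and rules were chosen with earlier results of these data known.

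Named genes are 14 with known roles, the 5 genes highest or lowest by HC/CH, HM/MH or MM in replicate 1 with at least 10 sites per replicate, read again in replicate 2, and the largest cluster of each of 3 chromosomes. Only the sign-flip permutation test was tried on simulated counts, with a known shift in HC/CH or none. Those counts left out the linkage of calls within genes and sites, and the other steps were not simulated. Python 3.11.15, NumPy 2.4.6, pandas 2.3.3, SciPy 1.17.1 and Matplotlib 3.10.9 were used. Alternatives were correction by call rates, other weightings, coverage, transcripts, windows and gene sets, and leaving out each replicate.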

Additional observations from a re-analysis of the deposited data

Results flagged for a closer look

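The step from introns to last exon differed between Zfp genes and other genes in replicate 1 for 2 states, by the exact sign-flip permutation test of the difference itself over 19 autosomes. For HC/CH it was -1.21 percentage points (adjusted p = 0.0225), and replicate 2 gave -0.98 (adjusted p = 0.0904, exact permutation test). For HH it was -0.16 points (adjusted p = 0.0308), and replicate 2 gave -0.06 (adjusted p = 0.401, exact permutation test). These HH levels are as called. After correction by the spike-in call rates, HH in replicate 1 was 0% in Zfp last exons and 0.038% in Zfp introns. In other genes it was 0.063% and 0%. Autosomes share a library, and neither difference was called in both replicates.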

How the results depend on the processing

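No paired analysis was possible because both samples belong to 1 group, so replicate numbers pair no samples across groups. The differences themselves were taken within each autosome of each replicate. A result whose replicates had opposite signs and no call was given no direction. Promoter differences in CC stayed between 7.27 and 14.3 points under every alternative. With at least 10 calls per site, replicate 2 kept 4 autosomes in promoters and the calls were lost: CC 7.27, MM -4.57, MC/CM -1.54, HC/CH -0.79 and HM/MH -0.26 points, and in Zfp genes the last exon minus introns step in MC/CM -1.33. Promoter HM/MH was also lost with sites of both replicates (-0.50) and with 500 bp either side of the TSS (-0.51). Promoter HH was lost under 4 alternatives: at least 10 calls (-0.10), sites of both replicates (-0.085), 500 bp either side (-0.079) and correction by the spike-in call rates (-0.046). The step in MC/CM was lost with sites of both replicates (-1.61) and per-gene means (-1.70). Leaving out replicate 2, intron HC/CH passed at 0.56 points, against 0.24 without replicate 1. Per-gene means turned the direction of uncalled differences: last exon CC -1.02; introns CC -0.30, MM 0.66, MC/CM 0.10, HC/CH -0.31 and HM/MH -0.16; last exon minus introns MM 1.29, HC/CH 0.10 and HM/MH 0.33. Also turned were last exon CC weighted by calls (-0.92), intron HM/MH (-0.048) and the difference of steps in CC (0.15) with at least 5 motifs, the HM/MH step with sites of both replicates (0.019), and clustered minus isolated intron MM with a 250 kb window (-0.76). Against other genes with at least 1000 coding bases in the last exon, chosen after seeing the data, CC (-7.60) and MC/CM (1.5) turned. The cause was not tested. Sites of at most 50 calls, also added, changed no call. Depth limits replicate 2, with a mean of 6.37 calls per site.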
